A study of Homo sapiens with 11 samples.

Results

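The 9 genes AKR1C1, AKR1C2, AKR1C3, AKR1B1, AKR1B10, CBR1, CBR3, EPHX1 and UGDH encode enzymes that reduce carbonyl groups, open epoxides or supply glucuronic acid. They were chosen by symbol from the 26485 genes of each count table, and their mRNA levels were compared between ODC and CTRL at 24 h and at 2 h. RNA came from Caki-1-SR clone 1, a single sunitinib-resistant clone of Caki-1, a human clear cell renal cell carcinoma (ccRCC) line. All groups were kept in 1 µM sunitinib, an inhibitor of receptor tyrosine kinases. ODC is a mixture of the ruthenium compound Rapta-C at 2 µM, the EGFR kinase inhibitor erlotinib at 1 µM, the antidiabetic drug metformin at 1 µM and parthenolide, a plant lactone that reacts with thiols, at 5 µM. CTRL cells received none of the 4 drugs, and the study describes them both as untreated and as given the solvent. There were 3 CTRL and 3 ODC libraries at 24 h, and 2 CTRL and 3 ODC libraries at 2 h. Nothing in the labels says whether these libraries came from separate cultures, so the p-values measure only the spread between libraries, which may be technical. The libraries of the 2 h and the 24 h groups carry different months in their labels, which do not say what was done in that month, and the effects of time and of that batch cannot be told apart.

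Aldo-keto reductases (AKR) are cytosolic enzymes that use NADPH to turn aldehydes, ketones and quinones into alcohols. The carbonyl reductases CBR1 and CBR3 do related chemistry with a different, short-chain dehydrogenase fold. EPHX1, microsomal epoxide hydrolase, adds water to reactive epoxides, and UGDH oxidises UDP-glucose to UDP-glucuronic acid, which UDP-glucuronosyltransferases attach to drugs and steroids before export. Several of these genes are known targets of NRF2, a transcription factor that answers electrophiles and oxidants through the antioxidant response element (ARE).

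The libraries held 17785229 to 20882856 counts each at 24 h and were deeper at 2 h, with 25782895 to 31118349 counts. The renal marker PAX8 lay between 444.1 and 887.6 CPM (a gene's counts relative to the scaled library total) in the 11 libraries. Of the 11 renal and ccRCC markers, 3 averaged under 1 CPM over the 11 libraries. Together the 11 markers summed to 4840.3 to 5738.3 CPM in CTRL and to 3867.7 to 4824.3 CPM in ODC at 24 h, lower in every ODC library. At 2 h they summed to 5660.2 to 5983.6 CPM in CTRL and 6021.9 to 6302.7 CPM in ODC. VIM was the largest part of these sums, at 2451.7 to 3732.6 CPM over the 11 libraries. PAX2 and CA9 were at or near 0 (at most 0.152 and 0.0488 CPM), although CA9 typically marks ccRCC. All 5 leukocyte and all 4 endothelial markers averaged under 1 CPM over the 11 libraries, though CD14 reached 2.44 CPM in its highest library. The 4 fibroblast markers summed to 67.7 to 144.4 CPM in CTRL and 115.3 to 168.5 CPM in ODC at 24 h, and to 136.2 to 276.6 and 157.8 to 165.9 CPM at 2 h. COL1A1 gave most of that sum (61.0 to 233.5 CPM) and DCN was at most 2.78 CPM. The part of these markers in the results was not tested.

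The AKR1C genes are so alike that short reads can fit more than 1 of them, and this bears on each of their values. AKR1C1 (chr10:4963253-4983283, plus strand), AKR1C2 (chr10:4987775-5018031, minus strand) and AKR1C3 (chr10:5035354-5107686, plus strand; hg38 with GENCODE release 44) lie beside each other on chromosome 10. Their 969-base coding sequences are identical at 98.0% of positions between AKR1C1 and AKR1C2 (19 differences), at 91.4% between AKR1C1 and AKR1C3 (83 differences) and at 91.0% between AKR1C2 and AKR1C3 (87 differences). The first 100 coding bases show this, with a capital wherever a base differs from AKR1C1:
AKR1C1: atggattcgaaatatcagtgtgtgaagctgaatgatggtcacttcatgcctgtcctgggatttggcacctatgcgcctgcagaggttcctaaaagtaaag
AKR1C2: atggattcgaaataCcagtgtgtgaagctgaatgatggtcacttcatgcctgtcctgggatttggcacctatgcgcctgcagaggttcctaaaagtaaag
AKR1C3: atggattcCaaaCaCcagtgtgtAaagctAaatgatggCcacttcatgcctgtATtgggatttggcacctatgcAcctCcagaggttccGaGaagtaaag
In this stretch AKR1C2 differs from AKR1C1 at 1 base and AKR1C3 at 12 bases. AKR1B1 (chr7:134442356-134459284, minus strand) and AKR1B10 (chr7:134527567-134541412, plus strand) are neighbours on chromosome 7 and more distant in sequence, with 75.2% identical coding bases and no identical run over 22 bases. In the same stretch AKR1B10 differs from AKR1B1 at 31 bases, in capitals:
AKR1B1: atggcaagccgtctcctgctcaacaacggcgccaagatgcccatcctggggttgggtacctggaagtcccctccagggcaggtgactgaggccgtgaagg
AKR1B10: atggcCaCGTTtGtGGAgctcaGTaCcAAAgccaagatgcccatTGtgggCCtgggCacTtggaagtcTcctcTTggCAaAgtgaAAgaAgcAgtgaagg
CBR1 (chr21:36069941-36073166, plus strand) and CBR3 (chr21:36135079-36146562, plus strand) share 77.0% of coding bases, with a longest identical run of 49 bases. EPHX1 (chr1:225810124-225845563, plus strand) and UGDH (chr4:39498755-39528311, minus strand) have no relative among the other members.

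The reads of this study were 100 bases long, so every 100-base stretch of each gene's reference (MANE) transcript was searched for an exact copy at another locus. Of the stretches within the coding sequence, 26.6% (231 of 870) were found elsewhere for AKR1C2, 20.7% (180 of 870) for AKR1C1 and 9.77% (85 of 870) for AKR1C3. Over its whole transcript AKR1C2 shared 25.6% of stretches with AKR1C1 and 2.34% with AKR1C3. AKR1B10 shared 3.53% of coding stretches, with AKR1B15 and the pseudogene AKR1B10P1. AKR1B1, CBR1, CBR3, EPHX1 and UGDH shared none. How the counting treated reads that fit more than 1 locus is not given in the sources used here, so a low count of AKR1C1 or AKR1C2 can hold reads of another AKR1C gene or lack reads of its own.

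**Figure D1:**
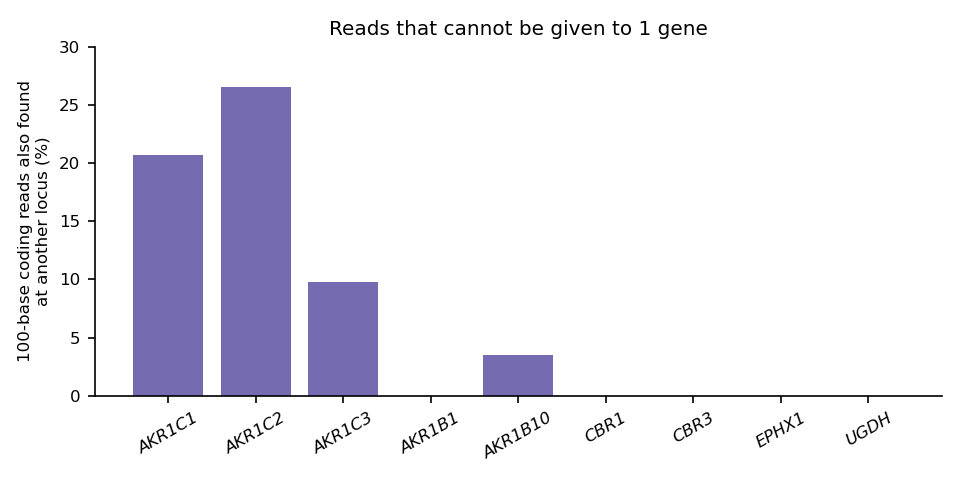
Each bar gives the share of 100-base stretches of a gene's coding sequence, in percent, with an exact copy at another locus. AKR1C2 (26.6%), AKR1C1 (20.7%) and AKR1C3 (9.77%) stand above AKR1B10 (3.53%), and the other 5 genes are at 0.

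In CTRL cells at 24 h the enzymes spanned a wide range of levels. AKR1B1, aldose reductase, which turns glucose into sorbitol and also clears lipid aldehydes, was by far the most abundant at 555.6 ± 44.7 CPM per kb of transcript (SD, n = 3; all levels per length use the MANE transcript). UGDH followed at 25.5 ± 3.17 and CBR1 at 21.6 ± 0.143, then EPHX1 at 7.07 ± 1.29, AKR1C3 at 4.64 ± 2.47 and CBR3 at 3.62 ± 0.976 CPM per kb. The libraries of EPHX1 and AKR1C3 overlapped in level per length, as did those of AKR1C3 and CBR3, so these neighbours did not differ beyond their spread. AKR1B10 (0.113 ± 0.114) and AKR1C1 (0.0504 ± 0.0153 CPM per kb) were barely detected and also overlapped, and AKR1C2 had no count in any of the 3 libraries. In ODC cells at 24 h AKR1B1 still led with 1319 ± 508.5 CPM per kb, EPHX1 came to 23.3 ± 10.1 beside 24.4 ± 2.27 for CBR1, and AKR1B10 to 2.09 ± 1.48.

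Several levels were unlike between the time points in the controls alone. EPHX1 stood at 88.0 ± 21.3 CPM in CTRL cells at 2 h (n = 2) and at 11.6 ± 2.10 CPM at 24 h (n = 3). AKR1B1 stood at 1515 ± 42.3 and 756.2 ± 60.8 CPM, UGDH at 160.8 ± 46.7 and 77.3 ± 9.63 CPM, and AKR1C3 at 13.9 ± 0.0717 and 5.50 ± 2.93 CPM. CBR1 was much the same at both, with 26.5 ± 3.89 and 26.1 ± 0.173 CPM. Since time and the month in the labels coincide here, no test was run on these levels.

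**Figure D2:**
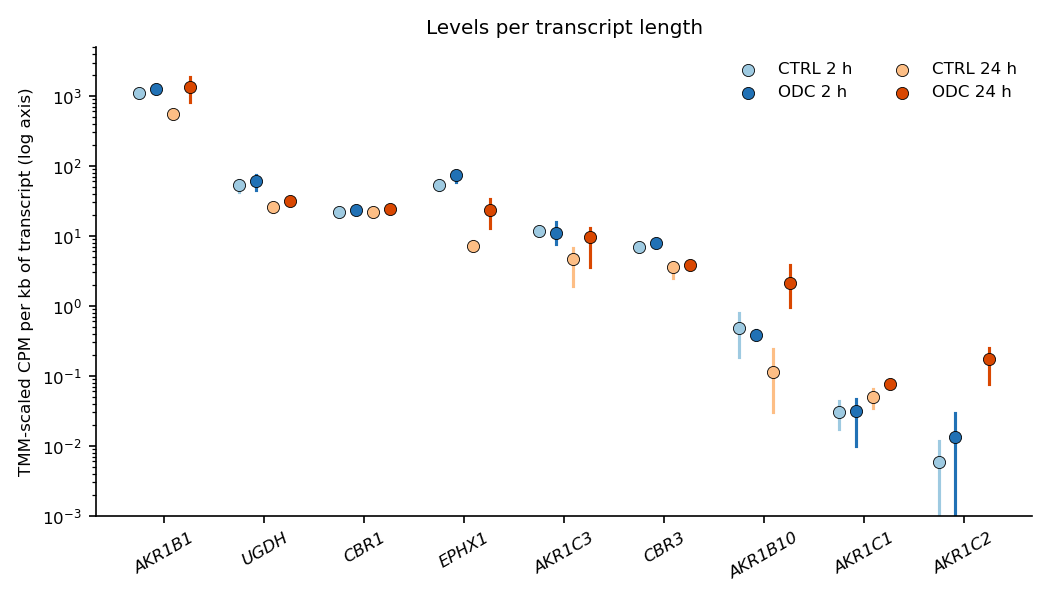
Each point is a group's mean level in CPM per kb of transcript (log axis) and each line runs from its lowest to its highest library; genes are ordered by CTRL at 24 h. AKR1B1 lies above every other gene in all 4 groups, AKR1C1 and AKR1C2 lie lowest, and AKR1C2 in CTRL at 24 h is at 0 and is not drawn.

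After 24 h of ODC, 3 enzymes were at least 2-fold higher with an unadjusted p under 0.05: AKR1B10, EPHX1 and AKR1B1. No member reached an adjusted p under 0.05 in edgeR's quasi-likelihood test, a threshold that 24 of the 12689 genes tested passed (0.189%). By edgeR's likelihood ratio test and by DESeq2, 3 members did (AKR1B10, EPHX1 and AKR1B1 in each), as did 3.16% and 2.98% of all genes. The same 3 members passed, beside 0.522% of genes, when every gene with at least 1 count was tested, and beside 1.40% of genes in a joint fit of all libraries. Of the 9 genes, 7 passed the filter on low counts, which AKR1C1 and AKR1C2 did not, and 7 of these 7 had a fitted change above 0. AKR1B10 passed it only through its ODC libraries, with at most 7 counts in a CTRL library, so it could only enter as higher. The counts of members in this paragraph, and their median, include it and are no independent support. The median log2 fold change of the 7 was 1.06, against 8.90e-04 over all genes tested, of which 50.1% were above 0. An unadjusted p under 0.05 was reached by 4 members, all higher (the 3 above and UGDH), where 12.2% of all genes reached it in either direction and 7.20% in the higher direction. The looser of the study's call rules, at least 2-fold with a p under 0.05 that is not adjusted, was met in the higher direction by 3 members and by 1.77% of genes. Every ODC library lay above every CTRL library for 5 of the 7 tested members and for 8.50% of genes. The RNA is from whole cultures, so a change in the share of cells with a gene on and a change in RNA per cell cannot be told apart.

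**Figure D3:**
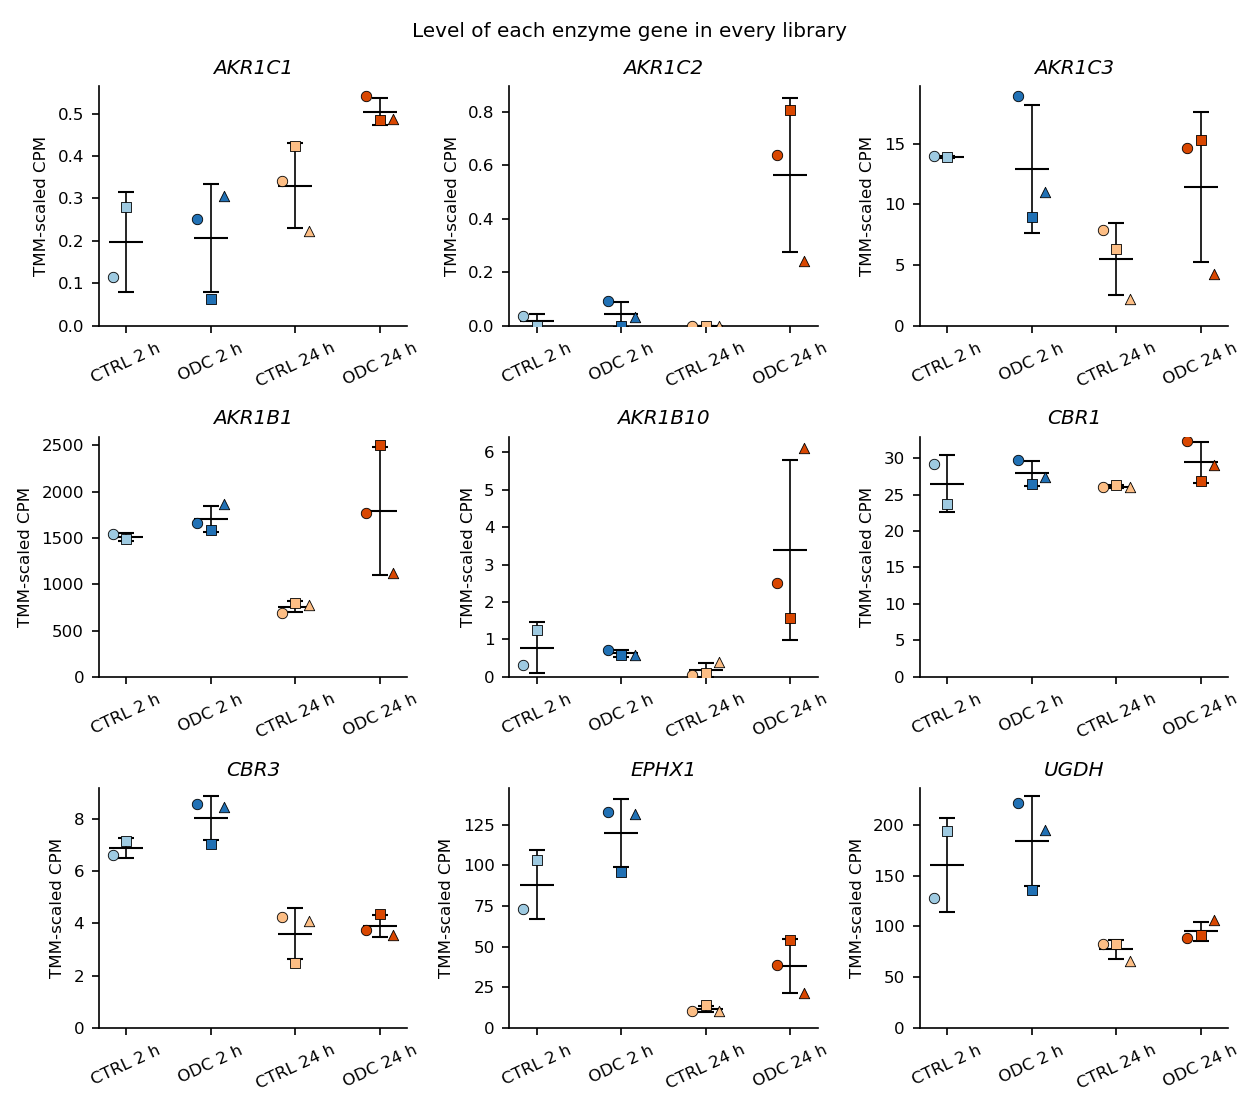
Each panel gives the level of 1 gene in CPM scaled with TMM factors, with 1 point for each library (circle, square and triangle for replicates 1, 2 and 3), a bar at the group mean and whiskers of 1 SD. At 24 h the 3 ODC libraries of AKR1B1, AKR1B10, CBR1, EPHX1 and UGDH lie above the 3 CTRL libraries, while those of AKR1C3 and CBR3 overlap with them.

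AKR1B10, a reductase of retinal and of lipid-derived aldehydes, had the largest fitted change of the 7 tested members at 24 h. It passed the filter on low counts only through the ODC libraries. It went from 0.0488, 0.106 and 0.393 CPM in CTRL replicates 1, 2 and 3 to 2.51, 1.56 and 6.10 CPM in the ODC replicates. In reads these were 1, 2 and 7 against 51, 29 and 125. The groups did not overlap, and ODC replicate 3 held more reads than the other 2 ODC libraries together. The fitted change was 18.8-fold (95% interval 5.69 to 61.9), a log2 fold change of 4.23 with a standard error of 0.747, with an unadjusted edgeR p of 4.74e-04 and an adjusted p of 0.0911. Because CTRL rests on 10 reads in all, the size of this fold is loose: left-out libraries moved the log2 value from 3.51 (without ODC 24 h replicate 3) to 5.37 (without CTRL 24 h replicate 3). Its neighbour AKR1B15, with which it shares a few stretches, had no count in any library.

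EPHX1, which hydrolyses epoxides at the endoplasmic reticulum, had at least 187 counts in every library. It stood at 10.2, 14 and 10.5 CPM in CTRL replicates 1 to 3 at 24 h and at 38.9, 54.2 and 21.3 CPM in the ODC replicates. All ODC libraries were above all CTRL libraries, with ODC replicate 3 the lowest and ODC replicate 2 the highest. The difference was 3.34-fold (95% interval 1.99 to 5.61, log2 1.74, standard error 0.324), with an unadjusted edgeR p of 6.74e-04 and an adjusted p of 0.0982. Without ODC 24 h replicate 3, where 0.545% of genes passed, the log2 value was 2.03 and the adjusted p 0.0164, and over all 18 alternatives the adjusted p ran from 4.71e-06 to 0.381.

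AKR1B1 had the largest difference in CPM of any member. It gave 687.0, 801.6 and 779.9 CPM in CTRL replicates 1 to 3 and 1768, 2500 and 1117 CPM in the ODC replicates at 24 h. The CTRL libraries lay close together and the ODC libraries spread widely above them, with the same order as for EPHX1. The difference was 2.41-fold (95% interval 1.58 to 3.66, log2 1.27, standard error 0.262), with an unadjusted edgeR p of 0.00130 and an adjusted p of 0.116. Without ODC 24 h replicate 3 the log2 value was 1.52 with an adjusted p of 0.0164, without ODC 24 h replicate 2 it was 0.937, just under 2-fold, and over all 18 alternatives the adjusted p ran from 8.38e-05 to 0.438.

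The ODC libraries at 24 h did not rank alike for all members. Replicate 3 was the lowest ODC library for EPHX1, AKR1B1, AKR1C2, AKR1C3 and CBR3, and the highest for AKR1B10 and UGDH.

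UGDH and CBR1 were a little higher in ODC at 24 h. UGDH stood at 82.9, 82.8 and 66.2 CPM in CTRL and at 88.2, 91.2 and 106.1 CPM in ODC replicates 1 to 3. The groups did not overlap, and the difference was 1.24-fold (95% interval 1.02 to 1.51, log2 0.31, standard error 0.122), with an unadjusted edgeR p of 0.0330 and an adjusted p of 0.349. CBR1, which reduces prostaglandins and quinone drugs such as the anthracyclines, stood at 26.0, 26.3 and 26.1 CPM in CTRL and at 32.4, 26.9 and 29.0 CPM in ODC. These libraries did not overlap either, though ODC replicate 2 was close to CTRL. Its change was 1.14-fold (95% interval 0.951 to 1.36) with an adjusted edgeR p of 0.567, an interval that reaches below 1 and stays under a 2-fold change.

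CBR3, the paralogue of CBR1 with a narrower range of substrates, overlapped between the groups. It gave 4.25, 2.49 and 4.10 CPM in CTRL and 3.74, 4.36 and 3.56 CPM in ODC replicates 1 to 3 at 24 h. The highest library was an ODC and the lowest a CTRL library. Its fitted change was 1.09-fold (95% interval 0.730 to 1.62, adjusted edgeR p of 0.894), and it turned to the other direction without CTRL 24 h replicate 2 (log2 -0.09). Of the stretches of its transcript, 57.4% lie on the antisense gene CBR3-AS1, counted at 0.978 ± 0.0809 CPM in CTRL and 1.52 ± 0.502 CPM in ODC at 24 h (SD, n = 3). For CBR1, 25.4% of stretches lie on overlapping genes such as CBR1-AS1. The kit keeps strand, but the strand setting of the counting is not given in the sources used here.

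AKR1C3, which makes testosterone and reduces prostaglandins, differed widely between the libraries of a group. It stood at 7.91, 6.36 and 2.24 CPM in CTRL and at 14.6, 15.3 and 4.30 CPM in ODC replicates 1 to 3 at 24 h. Replicate 3 was the lowest library in each group, and the ODC library of that number lay below 2 CTRL libraries. The change was 2.09-fold (95% interval 0.870 to 5.01, log2 1.06, standard error 0.548), with an unadjusted edgeR p of 0.0885 and an adjusted p of 0.491. With the counts of AKR1C1 to AKR1C4 summed into 1 feature, which takes up reads assigned to the wrong AKR1C gene but not reads that the counting may have dropped, there were 169, 128 and 44 counts in CTRL and 321, 308 and 103 in ODC. This sum was 2.16-fold higher (log2 1.11, standard error 0.525, adjusted p 0.454), and most of it was AKR1C3.

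AKR1C1 and AKR1C2, which inactivate progesterone and dihydrotestosterone, had too few counts for the main test. AKR1C2 had 0 counts in each CTRL library at 24 h, and 13, 15 and 5 counts in ODC replicates 1, 2 and 3. The mean of 0.564 ± 0.289 CPM in ODC (SD, n = 3) was 3.57-fold above a floor of 3 counts per CTRL library (0.158 CPM). This ratio leaves out the spread between ODC libraries, of which replicate 3 was at 0.244 CPM. When every gene with at least 1 count was fitted, AKR1C2 had an unadjusted edgeR p of 5.80e-04 and an adjusted p of 0.0693. It entered that fit only through its ODC libraries and could only come out higher, so these p-values are no independent support. AKR1C1 had 7, 8 and 4 counts in CTRL and 11, 9 and 10 in ODC, a log2 difference of 0.61 (95% interval -0.395 to 1.61, adjusted p 0.722) in the same fit. Both genes share stretches with the more abundant AKR1C3. AKR1C4, the liver member, had 2 counts in 1 CTRL library at 2 h and none elsewhere.

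The 24 h libraries were numbered in alternation between CTRL and ODC, and taking adjacent numbers as pairs changed the calls. With this pairing as a replicate block, 4 members passed an adjusted p of 0.05: AKR1B10 (log2 4.22, adjusted edgeR p 0.00544), EPHX1 (log2 1.67, 0.0110), AKR1C3 (log2 1.06, 0.0165) and AKR1B1 (log2 1.19, 0.0276). The adjusted p was 0.162 for UGDH, 0.294 for CBR1 and 0.775 for CBR3. Over all genes the block raised the calls from 24 to 686 of 12689 (5.41%). The labels do not state what adjacent libraries share.

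At 2 h no fitted change of the 7 tested members reached 2-fold. Of the 7 tested members 5 were above 0 and 2 (AKR1C3 and AKR1B10) below, with a median log2 fold change of 0.17 against -0.00603 over all 13332 genes, of which 48.2% were above 0. No member and no gene (0%) reached an adjusted p under 0.05 by edgeR's quasi-likelihood test. An unadjusted p under 0.05 was reached by 1 member, in the higher direction, where 2.34% of genes reached it in either direction and 1.47% in the higher direction, and the 2-fold rule was met by 0 members and by 0.0975% of genes. DESeq2 and the likelihood ratio test called no member either at an adjusted p under 0.05, and called 0.00750% and 0.0375% of genes.

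EPHX1 was the member with that unadjusted p at 2 h. It gave 73.0 and 103.1 CPM in the 2 CTRL libraries and 132.6, 95.6 and 131.4 CPM in ODC replicates 1 to 3. The groups overlapped through ODC replicate 2, and the change was 1.36-fold (95% interval 1.01 to 1.83, log2 0.45, standard error 0.186, unadjusted edgeR p 0.0431, adjusted p 1.00). Without ODC 2 h replicate 3 no member had an unadjusted p under 0.05. AKR1B1 was the 1 member with no overlap at 2 h, as were 7.92% of genes, with 1545 and 1485 CPM in CTRL and 1660, 1592 and 1863 CPM in ODC. Its 1.12-fold difference (95% interval 0.963 to 1.31) had an unadjusted edgeR p of 0.119.

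The other members overlapped between the groups at 2 h. AKR1B10 gave 8 and 36 counts in CTRL and 23, 18 and 17 in ODC, and AKR1C3 gave 14 and 13.9 CPM in CTRL and 18.9, 8.92 and 11 CPM in ODC. For AKR1B10 the interval of the fold was wide, 0.330 to 1.91, and for AKR1C3 it was 0.588 to 1.48. UGDH gave 127.8 and 193.8 CPM against 221.8, 135.6 and 195.3 CPM, CBR1 29.2 and 23.7 against 29.8, 26.4 and 27.4 CPM, and CBR3 6.62 and 7.15 against 8.55, 7.05 and 8.45 CPM. AKR1C1 had 3 and 8 counts in CTRL and 8, 2 and 9 in ODC, and AKR1C2 had at most 3 counts in any library, which allows no fold.

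**Figure D4:**
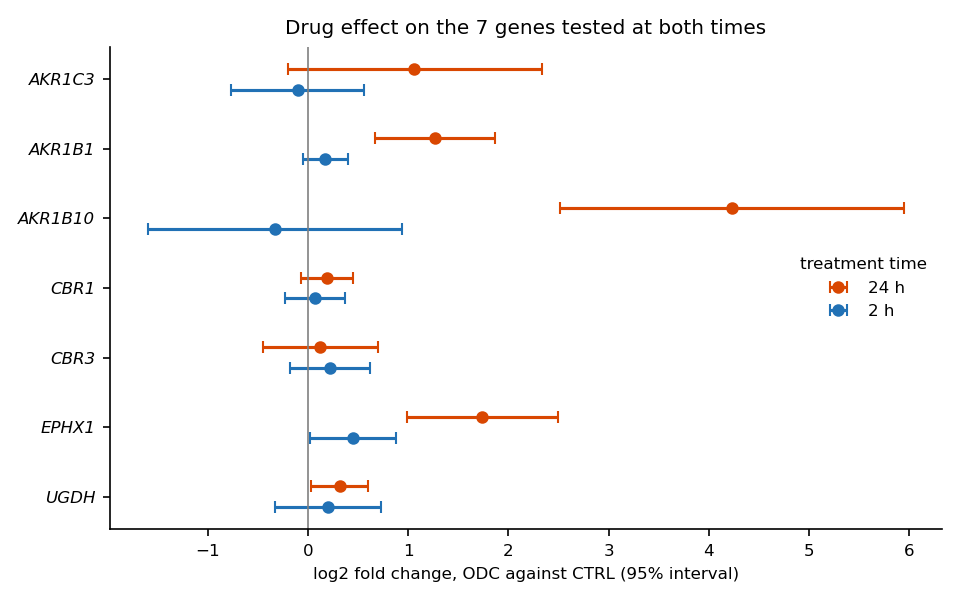
Each point is the log2 fold change of ODC against CTRL for 1 of the 7 genes tested, with its 95% interval, at 24 h and at 2 h. At 24 h the intervals of AKR1B1, AKR1B10, EPHX1 and UGDH lie above 0, and at 2 h only that of EPHX1 does, by little (0.0177 at its lower end).

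The difference between the 24 h and the 2 h effects was then tested itself, in a fit of all 11 libraries. Among the 7 members tested at each time it was largest for AKR1B10 (log2 4.56, standard error 1.05, unadjusted edgeR p 9.84e-04), followed by EPHX1 (1.27, 0.416, p 0.0102), AKR1C3 (1.14, 0.709, p 0.134) and AKR1B1 (1.08, 0.318, p 0.00565). None of these reached an adjusted p under 0.05 (0.490, 0.597, 0.956 and 0.584), which 2 of 13333 genes did (0.0150%), while an unadjusted p under 0.05 was reached by 3 members (AKR1B10, EPHX1 and AKR1B1) and by 5.93% of genes. All 3 also had a difference of at least 2-fold, and 1.92% of all genes met both conditions in either direction. The count of members fell to 1 without ODC 24 h replicate 2. AKR1C1 and AKR1C2 also entered this fit, with intervals of the log2 difference from -1.24 to 2.35 and from -1.23 to 12.7, the latter resting on 0 counts in CTRL at 24 h. For CBR1 (0.10), CBR3 (-0.12) and UGDH (0.10) the 95% intervals of the difference held 0 and ran from -0.272 to 0.467, from -0.777 to 0.547 and from -0.522 to 0.726.

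The quinone reductase NQO1 passed an adjusted p of 0.05 at 24 h. Among 10 quinone and enone reductases, NQO1, which transfers a pair of electrons at once, was 2.91-fold higher (202.7 ± 19.7 against 583.3 ± 15.9 CPM, SD, n = 3, adjusted edgeR p 0.00216) and was the 1 of the 10 to pass. TP53I3 (log2 0.90, adjusted p 0.0655) and NQO2 (0.77, 0.107) did not pass, and the median of this list was 0.10. Among 22 tested antioxidant response genes other than the 9 enzymes, 19 had a value above 0 and the median was 0.38.

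No gene of the nearest families passed. Of 12 other aldo-keto reductases 5 were tested, 3 above and 2 below 0 with a median log2 of 0.07. KCNAB2, with the smallest unadjusted p of these, was at 2.04 CPM in CTRL and 3.37 in ODC (log2 0.74, adjusted edgeR p 0.274). AKR1A1, aldehyde reductase, stood at 57.6 ± 3.01 CPM in CTRL and 59.8 ± 8.96 CPM in ODC (SD, n = 3). Of 21 other carbonyl-reducing short-chain dehydrogenases 16 were tested, 8 above and 8 below 0 with a median of 0.01. An unadjusted edgeR p under 0.05 was reached by 2 of them in the higher and 2 in the lower direction. CBR4, a mitochondrial reductase, was at 15.9 CPM in CTRL and 10.8 in ODC (log2 -0.54, adjusted p 0.249), and RDH11, a retinal reductase, at 70.7 and 52.0 (-0.43, adjusted p 0.132). DHRS12 was at 1.17 CPM in CTRL and 2.39 in ODC (log2 1.04, adjusted p 0.264).

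Neither the other epoxide hydrolases nor the genes around UGDH passed either. EPHX4 was at 3.76 ± 1.05 CPM in CTRL and 1.46 ± 0.0445 CPM in ODC (SD, n = 3, log2 -1.34, adjusted edgeR p 0.107), in the direction opposite to EPHX1, and EPHX2 and LTA4H had log2 values of 0.53 and -0.14. Of 30 genes of the UDP-sugar and glucuronic acid pathway 15 were tested, 8 above and 7 below 0 with a median of 0.03. UGP2, which makes the UDP-glucose that UGDH uses, was at 128.5 CPM in CTRL and 111.9 in ODC (log2 -0.18, adjusted p 0.535).

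The aldehyde and alcohol dehydrogenases oxidise or interconvert the same kinds of substrate, and the aldehyde dehydrogenases went either way. Of 19 aldehyde dehydrogenases 14 were tested, 9 above and 5 below 0, and none passed. ALDH1L2, a mitochondrial folate enzyme, was at 78.6 CPM in CTRL and 39.2 in ODC (log2 -0.99, adjusted p 0.0989), and ALDH3B1 at 9.44 and 24.2 CPM (1.38, adjusted p 0.214). Of 8 alcohol dehydrogenases 2 were tested, 2 above and 0 below 0, and ADH5 lay at 221.6 CPM in CTRL and 221.5 CPM in ODC. At 2 h no gene of any of these 8 lists passed an adjusted p of 0.05.

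**Figure D5:**
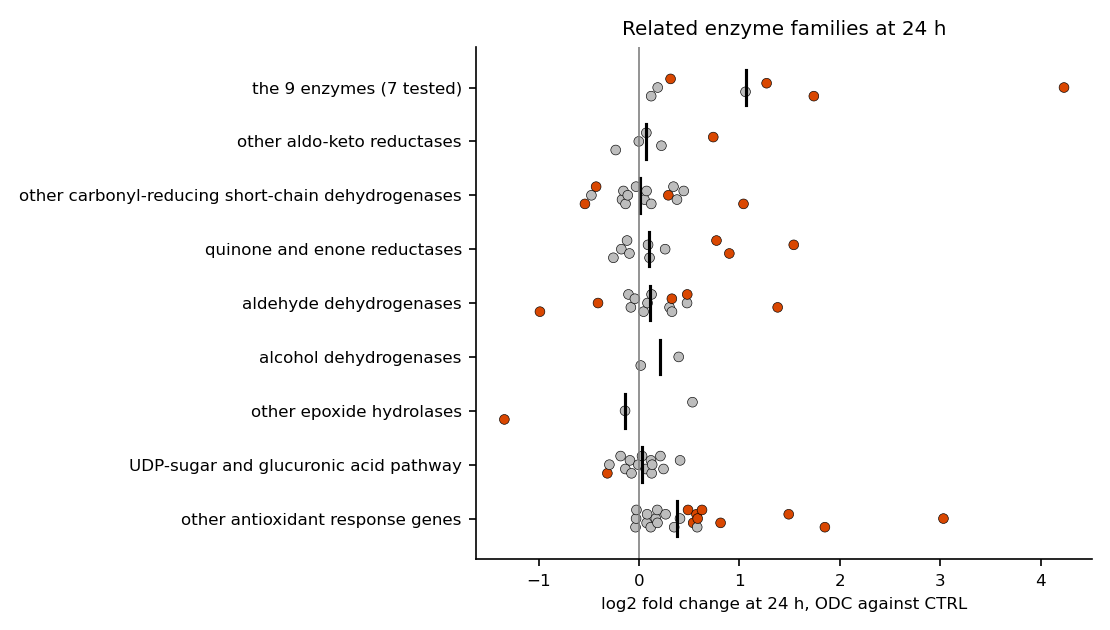
Each point is the log2 fold change at 24 h of 1 tested gene of a family, in orange where its unadjusted p was under 0.05, and the vertical bar is the family's median. The medians are 1.06 for the 7 tested enzymes and 0.38 for the other antioxidant response genes, and lie between -0.14 and 0.21 for the other 7 families. The 7 enzymes include AKR1B10, which passed the filter only through its ODC libraries and could only enter as higher. Their median is thus no independent support.

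Across the 11 libraries, with each time point's mean subtracted, the levels of EPHX1 and AKR1B1 went together (Pearson r = 0.963 of log2 CPM, with a pseudocount of 0.5). These points share library, depth and treatment, and the value is a description. By the same measure, among about 10193 genes with at least 5 CPM on average, the pattern nearest to EPHX1 was that of TALDO1, an enzyme of the pentose phosphate pathway (r = 0.978), then AKR1B1 itself and ALDOC (0.959). For AKR1B10 the nearest were UAP1L1 (0.957), DNAJC16 (0.951) and STT3A (0.948), for UGDH GPATCH3 (0.924), KEAP1 (0.908) and EMC2 (0.908), and for CBR1 RAB4A (0.894), CIDECP (0.890) and FUNDC1 (0.882). AKR1B10 followed AKR1B1 (0.572) and EPHX1 (0.622) less closely than those 2 followed each other. In CTRL at 24 h AKR1B10 lay under the pseudocount in every library (at most 0.393 CPM), which limits all of its values here. AKR1C1, with 2 to 11 counts a library, had values of 0.968 for TIGD6, 0.90 for CRNDE and 0.869 for SLCO3A1, from which nothing is read.

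RefSeq promoter windows on GRCh38.p14, from 250 bases before to 50 after a start, matched 7 of the 9 genes with 11 windows. AKR1B10 and CBR3 were not among them. The core of the ARE was searched on both strands as TGACNNNGC, which 13.3% of all 35116 windows hold, and was present in 2 of the 11, a window of CBR1 and the most downstream of the 3 windows of EPHX1. The AP-1 motif TGANTCA, which 7.71% of windows hold, was in 0 of the 11, and the CCAAT box CCAAT, which 34.6% hold, was in 8. These 8 are not separate hits, since the AKR1B1 windows overlap at the same site and the AKR1C windows are alike in sequence. The EPHX1 window is shown because only it held the core and had upstream bases outside its gene's annotated exons. It was thus picked by the motif itself. Its upstream bases (chr1:225825104-225825353, plus strand, outside the annotated exons of EPHX1) hold the core in capitals, 78 bases before the start:
EPHX1: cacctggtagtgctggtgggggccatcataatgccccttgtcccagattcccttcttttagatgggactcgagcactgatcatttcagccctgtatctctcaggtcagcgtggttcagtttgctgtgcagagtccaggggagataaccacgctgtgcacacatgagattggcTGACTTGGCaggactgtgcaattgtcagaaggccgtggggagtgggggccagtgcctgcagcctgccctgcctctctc
A match of letters is a description of this window and not a site of binding.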

How the data were processed

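The authors sequenced stranded mRNA libraries of Caki-1-SR clone 1 as single-end reads, aligned them to hg38 with STAR and counted reads per gene with HTSeq; the submitters' processing notes name STAR 2.7.0f, HTSeq 0.9.1 and edgeR 3.26.8. They deposited raw counts for 26485 gene symbols, without normalization or filtering, in 1 table for each time point. The annotation version, strand setting and handling of reads with several hits are not given in the sources used here.

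From the deposited counts, ODC was compared with CTRL within each time point with edgeR 4.0.16 in R 4.3.3, using the earlier quasi-likelihood method, TMM factors and filterByExpr (minimum count 10, minimum total 15), leaving 12689 genes for 24 h and 13332 for 2 h. A contrast over 11 libraries and 13333 genes tested the difference between times. All tests were two-sided, and p-values were adjusted by the Benjamini-Hochberg method across every gene tested. CPM are counts scaled with the TMM factors of the joint fit (0.969 to 1.02). A count of 3 was taken as the floor, worth 0.144 to 0.169 CPM at 24 h, and covers counting error only. Alternatives covered filters, scalings, tests (DESeq2 1.42.0 among them), summed paralogs, a joint fit, left-out libraries and a replicate block of adjacent library numbers at 24 h. Within those adjacent pairs the libraries' deviations from their group means had correlations of 0.242, 0.611 and 0.473. Between CTRL and ODC libraries of different pairs they ran from -0.563 to 0.239, the last close to the lowest paired value. The pairing comes from the library numbers in the labels, and what pairs share is not stated. Exact copies of 100-base stretches were searched in GENCODE 44 transcripts and hg38. Scripts were tested on simulated data, and figures drawn with matplotlib 3.10.9.

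The genes and lists were chosen with earlier results of these data known. Beside all 9 genes, the text names list genes with an adjusted p under 0.05 and up to 3 per list with the smallest unadjusted p at 24 h, and the 3 genes most like each of 5 members. A few genes that this rule names are left out of the text.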

Additional observations from a re-analysis of the deposited data

How the results depend on the processing

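At 24 h the direction held for AKR1C3 (log2 0.69 to 1.46), AKR1B1 (0.94 to 1.52), AKR1B10 (3.51 to 5.37), CBR1 (0.11 to 0.24), EPHX1 (1.38 to 2.03) and UGDH (0.21 to 0.37) under all 18 alternatives run for each. The number of members with an adjusted p under 0.05 did not hold. It was 0 by the quasi-likelihood test and became 3 when all genes with any count were tested (beside 0.522% of genes), 3 by the likelihood ratio test (3.16%), 3 by DESeq2 (2.98%), 3 in the joint fit of all libraries (1.40%) and 4 with the replicate block of adjacent library numbers (5.41%), against 0.189% by the quasi-likelihood test. With 1 library left out it ran from 0 to 2, reaching 2 without ODC 24 h replicate 3. The cause was not tested. No block could be fitted at 2 h, where the groups hold 2 and 3 libraries.

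Left-out libraries turned these log2 values: CBR3 at 24 h, -0.088 without CTRL 24 h replicate 2 (range -0.088 to 0.25); at 2 h AKR1C3 (-0.48 to 0.11), AKR1B10 (-0.997 to 1.04), CBR1 (-0.063 to 0.24) and UGDH (-0.064 to 0.54); and for the difference between times AKR1C1 (-0.23 to 1.03), CBR1 (-0.062 to 0.23), CBR3 (-0.32 to 0.025) and UGDH (-0.24 to 0.37). Without a CTRL 2 h library the lone other one is assumed to vary like the rest. The 1 member with an unadjusted p under 0.05 at 2 h became 0 by the robust method, 0 in the joint fit and 0 to 1 with a library left out. The 3 members with an unadjusted p under 0.05 and at least 2-fold for the difference became 1 to 4 with a library left out. AKR1C1 and AKR1C2 had too few counts for the main test.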
